A study of Homo sapiens with 4 samples.

Results

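The mRNAs of 10 genes that encode subunits of the transcription factor AP-1, or close relatives of these subunits, were followed in a human multiple myeloma cell line with and without overexpression of RFWD2. The genes are JUN, JUNB, JUND, FOS, FOSB, FOSL1, FOSL2, ATF3, BATF and MAFF. They were taken by gene symbol alone, and all 10 were found, 1 row each, among the 58825 genes of the deposited table. The 4 RNA-seq libraries came from ARP1, an established cell line of multiple myeloma, a cancer of antibody-secreting plasma cells. Libraries 1 and 2 of the overexpression group carried the genotype RFWD2 overexpression, and libraries 1 and 2 of the control group were wild type. RFWD2 is the older symbol of COP1. No agent, time point or further allele is given for either group, nor how RFWD2 was introduced or whether the overexpressing cells were a clone or a pool. The study's design text speaks of biological repeats without saying that cultures were separate, so p-values below reflect only how these libraries scatter, and that scatter may be technical.

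AP-1 is a dimer of basic leucine zipper (bZIP) proteins. A Jun protein pairs with another Jun, a Fos or an ATF protein and binds the DNA element TGACTCA or the related cAMP response element TGACGTCA. Many of its genes are immediate-early genes, whose transcription starts within minutes of a signal and whose mRNAs decay fast, and the JNK kinases activate the Jun protein by phosphorylation. COP1 is a ubiquitin ligase that, with the adaptor DET1, marks the Jun protein for degradation, so the ligase is known to act on AP-1 protein, which RNA-seq does not measure.

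The start regions of these genes are shown for the elements named above and related ones, with the results below known. The 3 members that passed a test below, JUN, JUND and MAFF, hold such elements. So do ATF3, FOS, FOSB and FOSL2, which did not pass it. Whether the elements bear on the differences below was not tested. RefSeq promoters (250 bases before to 50 after a gene's start, build GRCh38.p14) were available for 9 of the 10 members, 11 promoters in all. FOSL1 had no entry. The element TGACNTCA, with N any base, was searched on both strands, and 4 of the 11 promoters held it, against 7.72% of 35116 promoters. The 30 bases around it are printed 5′ to 3′ on the gene's strand with the element in capitals, for JUN (chr1:58784096-58784125, minus strand, position -67 from the start), ATF3 (chr1:212565273-212565302, plus strand, position -123), JUND (chr19:18281804-18281833, minus strand, position -200) and MAFF (chr22:38201929-38201958, plus strand, position -54).
JUN: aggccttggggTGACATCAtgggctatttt
ATF3: cacctatgataTGACATCAtatggccactc
JUND: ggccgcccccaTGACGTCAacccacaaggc
MAFF: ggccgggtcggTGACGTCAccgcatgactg
JUN and ATF3 carried the same 8 letters, TGACATCA, and JUND and MAFF carried the palindrome TGACGTCA, found in 1.85% of all promoters. The shorter TGACGT, which every TGACGTCA contains, stood in 5 of the 11 member promoters against 7.98% of all, including FOS at position -64, FOSB at position -60 and FOSL2 at position -66. The element TGACTCA stood only in FOSL2, at position 5, against 4.95% of all promoters. All positions count from RefSeq starts, which can differ from the starts in the deposited coordinates given below. By those coordinates, the elements of JUN, MAFF and FOSL2 lie inside the gene, past its deposited start. Those of ATF3, FOS, FOSB and JUND lie before it. To set a promoter with TGACGT beside one with none of these elements, 150 bases are printed for FOS (chr14:75278624-75278773, plus strand) and JUNB (chr19:12791336-12791485, plus strand). The JUNB stretch runs up to the deposited start. The FOS stretch ends earlier, where an exon of GENCODE release 29 begins, short of the RefSeq start at 75278828. Any element is in capitals.
FOS: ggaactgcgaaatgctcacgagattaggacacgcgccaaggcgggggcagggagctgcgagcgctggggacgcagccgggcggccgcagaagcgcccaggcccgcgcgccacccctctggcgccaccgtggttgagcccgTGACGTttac
JUNB: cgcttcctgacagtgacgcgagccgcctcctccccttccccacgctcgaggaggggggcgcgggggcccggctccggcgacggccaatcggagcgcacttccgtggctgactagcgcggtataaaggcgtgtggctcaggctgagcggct
A match describes letters only, and binding was not measured.

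Estimated counts summed to between 62143098 and 70713792 in a library, and counts of the 10 members ran from 118 to 11294. RFWD2 itself stood at 13.5 and 13.9 FPKM under overexpression, against 5.99 and 8.93 FPKM in the controls (FPKM is a level scaled to transcript length and library depth). DET1 stood at 0.528 and 0.832 FPKM under overexpression, against 0.136 and 1.01 FPKM in the controls. Of 8 plasma cell markers 7 were present in all libraries, among them XBP1 at 377 to 542 FPKM and IRF4 at 117 to 348 FPKM, while CD27 stayed below 0.265 FPKM. The protocol text mentions adipose material, but all 4 adipocyte markers were at 0 in every library. Libraries were most alike within a replicate number. Over 11203 genes, Pearson's r of log2 CPM (CPM is a count scaled to library size) was 0.959 between the libraries numbered 1 and 0.966 between those numbered 2, against 0.901 within the overexpression group and 0.935 within the wild type group. Libraries that shared neither label were about as alike as those within a genotype, at 0.902 (overexpression 1, wild type 2) and 0.929 (overexpression 2, wild type 1). For that reason all values are given per library, and the replicate number is treated as a comparison of its own. Nothing in the labels says what a number stands for.

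The 3 Jun genes made up most of the AP-1 mRNA, from 77.8% to 86.7% of the FPKM summed over all 10 members. JUNB (chromosome 19, 12791486 to 12793315, plus strand), whose product binds DNA in the same dimers as Jun but activates many targets less, had 70.1 and 56.4 FPKM under overexpression, against 50.6 and 30.8 FPKM in the controls. Both overexpression libraries lay above both controls, by a small margin between overexpression 2 and wild type 1. JUND (chromosome 19, 18279760 to 18281622, minus strand), a Jun gene usually expressed in resting cells too, had 81.0 and 23.6 FPKM under overexpression, against 62.4 and 29.9 FPKM in the controls. Both wild type values of JUND lay between the overexpression values, and the libraries numbered 1 were high in both genotypes. JUN (chromosome 1, 58780788 to 58784327, minus strand), the founding member and the known COP1 substrate, had 22.1 and 5.45 FPKM under overexpression, against 12.3 and 4.29 FPKM in the controls. Its libraries numbered 1 again lay above those numbered 2, and the genotypes overlapped. JUN and JUNB have 1 exon in every transcript model of GENCODE release 29. Coordinates are those of the deposited table, which names no build, and 5 of the 10 members have identical ones in GENCODE release 29 on GRCh38.

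The 4 Fos genes were low. FOSL1 (chromosome 11, 65892049 to 65900526, minus strand), which encodes the Fos relative FRA-1, had 2.03 and 1.86 FPKM under overexpression, against 1.23 and 2.34 FPKM in the controls. FOS (chromosome 14, 75278826 to 75282230, plus strand), the classical immediate-early partner of Jun, had 1.67 and 0.736 FPKM under overexpression, against 0.752 and 0.424 FPKM in the controls. For FOSL1 the wild type libraries bracketed the overexpression libraries, and for FOS overexpression 1 stood above the other libraries while overexpression 2 lay just below wild type 1. FOSB (chromosome 19, 45467995 to 45475179, plus strand), another immediate-early Fos gene, had 0.807 and 0.662 FPKM under overexpression, against 0.780 and 0.543 FPKM in the controls. FOSL2 (chromosome 2, 28392448 to 28417312, plus strand), which encodes FRA-2, had 0.436 and 0.461 FPKM under overexpression, against 0.521 and 0.481 FPKM in the controls. FOSB was higher in the libraries numbered 1 with overlapping genotypes, and FOSL2 was the only member with both overexpression libraries below both controls in FPKM, within a narrow range.

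The 3 remaining genes encode bZIP partners. BATF (chromosome 14, 75522425 to 75547015, plus strand), a lymphocyte factor that pairs with Jun proteins and lacks a transactivation domain, had 11.2 and 12.7 FPKM under overexpression, against 8.18 and 11.7 FPKM in the controls. ATF3 (chromosome 1, 212565334 to 212620772, plus strand), a stress-induced factor, had 4.45 and 2.91 FPKM under overexpression, against 3.41 and 2.19 FPKM in the controls. In FPKM, BATF was lower in the libraries numbered 1 and ATF3 higher in them, and for both genes the genotypes overlapped. MAFF (chromosome 22, 38200767 to 38216507, plus strand), a small Maf protein that also pairs with NRF2, had 6.10 and 2.03 FPKM under overexpression, against 4.66 and 0.879 FPKM in the controls. MAFF was high in the libraries numbered 1, its genotypes overlapped, and it varied most of all members, 6.94-fold between its highest and lowest library, followed by JUN at 5.14-fold, and FOSL2 varied least at 1.20-fold.

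**Figure D1:**
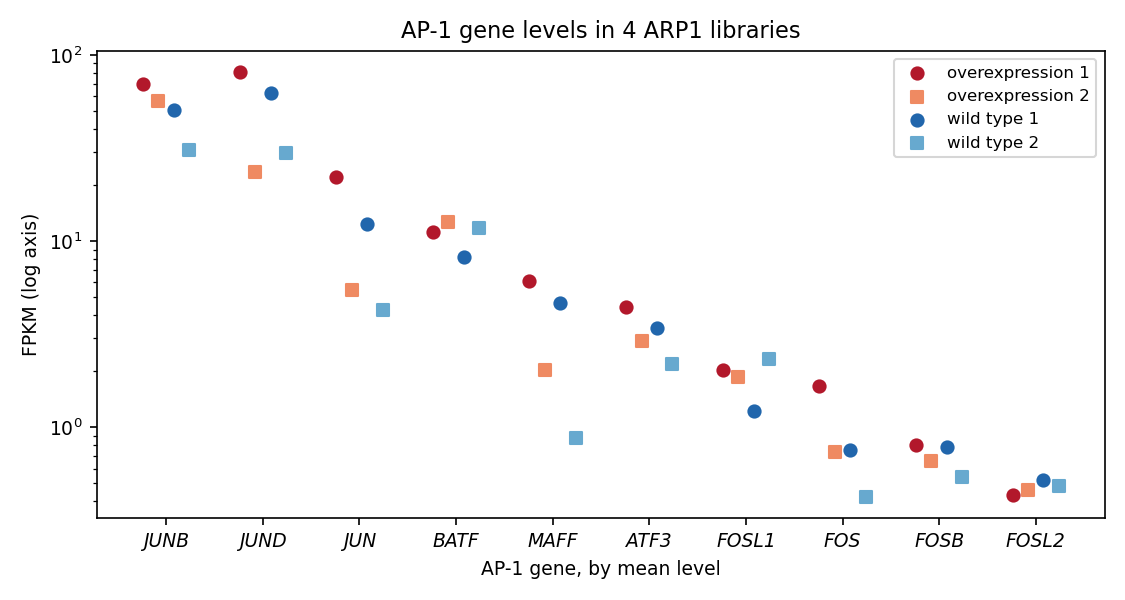
The plot gives the level of each AP-1 gene in FPKM on a log axis for the 4 libraries, with genes ordered by their mean. Circles are libraries numbered 1 and squares those numbered 2, and for JUN, JUND, FOS, FOSB, ATF3 and MAFF both circles lie above both squares.

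By mean FPKM over the 4 libraries the order was JUNB (52.0), JUND (49.2), JUN (11.03), BATF (10.96), MAFF (3.42), ATF3 (3.24), FOSL1 (1.86), FOS (0.894), FOSB (0.698) and FOSL2 (0.475). The order is firm at few steps. Of neighbouring genes, JUND exceeded JUN, BATF exceeded MAFF and FOSB exceeded FOSL2 with no overlap between their 4 libraries, and all other neighbours overlapped. Of these, compared library by library, FOSL1 exceeded FOS in all 4 and ATF3 exceeded FOSL1 in 3. In each remaining pair the higher gene led in 2. Against all genes of the table, mean FPKM placed JUNB at the 98.7th percentile and FOSL2 at the 77.1st.

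Summed over the family, Jun gene mRNA came to 173 and 85.5 FPKM in overexpression 1 and 2, and to 125 and 64.9 FPKM in wild type 1 and 2. The sum of the 4 Fos genes was 4.94 and 3.72 FPKM under overexpression, against 3.28 and 3.78 FPKM in the controls. The Jun to Fos ratio of these sums was therefore 35.1, 23.0, 38.2 and 17.2 in the same order of libraries, above 17 in every library and higher in those numbered 1. Within the Jun family JUNB held 40.5% and 66.0% of the summed FPKM with overexpression and 40.4% and 47.4% in wild type. JUND held 46.8% and 27.6% with overexpression and 49.8% and 46.0% in wild type, so overexpression 2 was the library in which JUNB most outweighed JUND. JUN held 12.7%, 6.37%, 9.82% and 6.61% in overexpression 1 and 2 and wild type 1 and 2. Within the Fos family FOSL1 held the largest share in each library, from 37.4% to 61.7%.

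**Figure D2:**
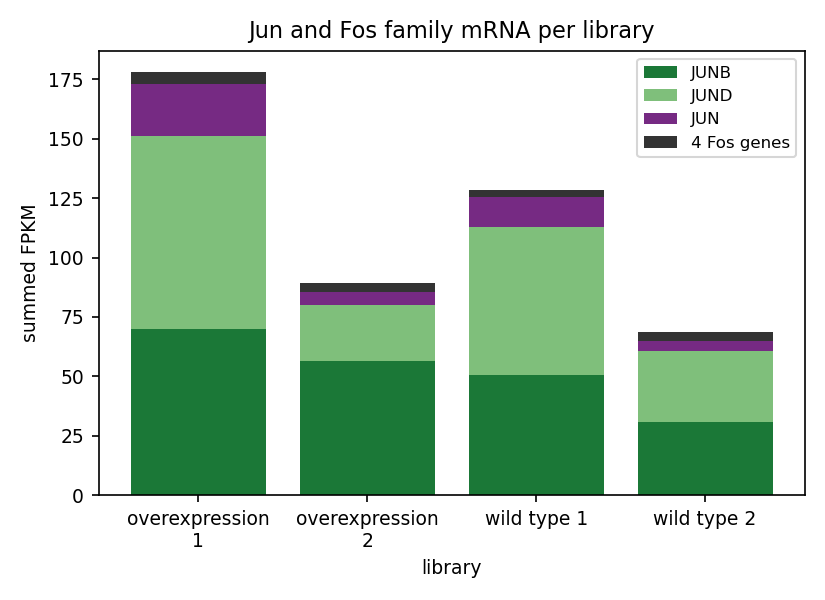
Stacked bars show summed FPKM of JUNB, JUND, JUN and the 4 Fos genes in each library. The Jun sums of 173 and 125 FPKM in the libraries numbered 1 exceed the 85.5 and 64.9 FPKM of those numbered 2, and the Fos genes form a thin cap of 3.28 to 4.94 FPKM.

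The comparison of the study's groups asks whether AP-1 mRNA differed with RFWD2 overexpression. No member passed the test, which does not show that levels were equal. The largest fitted differences were those of FOS, JUN and JUNB, all with higher means in overexpressing cells. edgeR's quasi-likelihood F test over 18873 genes called 0 of 10 members at an adjusted p under 0.05, and it called 0% of all genes. RFWD2 itself did not pass either, with a log2 difference of 0.86 ± 0.36 (SE; edgeR unadjusted p = 0.0569). Unadjusted, 346 genes and 0 members had p under 0.05, and DESeq2 called 0 members. Of the 28086 genes to which DESeq2 gave a p-value it called 0.196%, 0.117% higher and 0.0783% lower. That base includes any gene left without an adjusted p. In bulk RNA, fewer cells expressing a gene and less RNA per cell cannot be told apart.

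FOS averaged 1.20 ± 0.66 FPKM under overexpression, against 0.588 ± 0.232 FPKM in the controls (SD over n = 2). The fitted log2 difference was 1.01 ± 0.70 (SE), or 1.14 in number 1 and 0.67 in number 2, and edgeR's adjusted p was 1.0. JUN averaged 13.8 ± 11.7 FPKM against 8.30 ± 5.67 FPKM (SD over n = 2), and its fitted log2 difference was 0.73 ± 0.90 (SE). For JUN, each group's SD exceeded the distance between the means. JUNB averaged 63.3 ± 9.65 FPKM against 40.7 ± 14.1 FPKM (SD over n = 2), and its fitted log2 difference was 0.59 ± 0.46 (SE), or 0.47 in number 1 and 0.78 in number 2. In FPKM, JUNB was the only member whose overexpression libraries both lay above both controls, an arrangement that 12.8% of all tested genes showed, and FOSL2 the only one with the opposite arrangement, shown by 7.73%. On the log2 CPM scale of the fit neither held. JUNB then had 6.77 in overexpression 2 and 6.95 in wild type 1, and FOSL2 had 2.07 in overexpression 1 and 1.97 in wild type 2. BATF was the member with both overexpression libraries above both controls on that scale, by 3.72 in overexpression 2 against 3.70 in wild type 2. The share of all genes with that arrangement was computed in FPKM only. The fitted log2 difference of FOSL2 was -0.21 ± 0.46 (SE).

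The other 6 members had fitted log2 fold changes from 0.11 for FOSB to 0.51 for MAFF, each smaller than its standard error. MAFF had 0.51 ± 0.99 (SE), with 0.39 and 1.11 within numbers 1 and 2, and ATF3 had 0.36 ± 0.54, with 0.39 and 0.31. JUND and FOSL1 pointed in opposite directions within the numbers, at 0.38 and -0.43 for JUND and at 0.73 and -0.41 for FOSL1. All 10 adjusted p-values from edgeR were 1.0. Within both numbers 7 of 10 members were higher with overexpression, where 26.9% of all genes were, and 1 was lower, where 27.2% were. The median log2 fold change of the members was 0.30, and that of all genes tested was 0.01. The members' median turned to -0.22 without overexpression library 1, when JUN, JUND, FOSB, FOSL1, ATF3 and MAFF took negative signs, and the log2 difference of FOS came to 0.06. The median was 0.82 without overexpression 2, 0.92 without wild type 1 and 0.05 without wild type 2. Such fits compare groups that hold replicate numbers in unequal parts, and while they called 144, 183, 73 and 83 genes in that order, they called 0 members.

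Markers of other cell types were near the floor but not level between the groups. The fibroblast list summed to 0.515 to 1.07 FPKM with overexpression and to 0.133 to 0.354 FPKM in wild type, with COL1A2, COL3A1, DCN and LUM (4 of 6) at 0 in all libraries. The myeloid list summed to 1.21 to 1.28 FPKM against 0.125 to 0.471 FPKM, nearly all of it CSF1R, with LYZ and FCGR3A at 0. The epithelial list summed to 3.27 to 3.61 FPKM against 1.99 to 2.15 FPKM, nearly all of it KRT18, with KRT19 at 0. The T and NK cell list summed to 0.236 to 0.257 FPKM against 0.102 to 0.228 FPKM, with CD3D and CD3G at 0. The part of these genes in the AP-1 values was not tested.

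**Figure D3:**
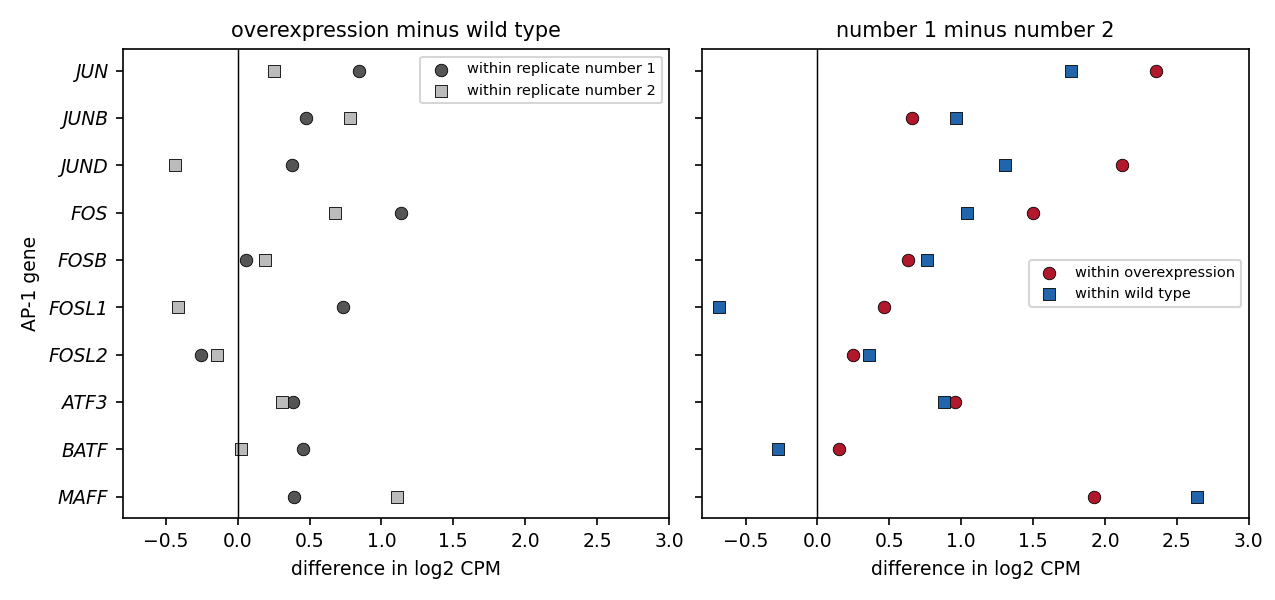
Differences in log2 CPM are plotted for each AP-1 gene, on the left for overexpression minus wild type within each replicate number and on the right for number 1 minus number 2 within each genotype. On the left all points lie between -0.43 and 1.14 with JUND and FOSL1 on both sides of 0, while on the right JUN, JUND, FOS and MAFF lie above 1 in both genotypes.

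More members passed the test between replicate numbers than between genotypes. JUN, JUND and MAFF were higher in the libraries numbered 1 than in those numbered 2, by log2 differences of 1.71 to 2.20, and passed the test. FOS and ATF3 had smaller differences that passed in DESeq2 but not in edgeR. FOSL1, FOSL2 and BATF had the smallest differences. edgeR's quasi-likelihood F test called 3 of 10 members, all higher in number 1, beside 4.88% of all genes, 2.84% higher and 2.04% lower.

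JUN was higher by a log2 difference of 2.12 ± 0.32 (SE; edgeR adjusted p = 0.0493), with 2.36 within the overexpression libraries and 1.76 within the wild type libraries. MAFF was higher by 2.20 ± 0.41 (SE; edgeR adjusted p = 0.0493), with 1.93 and 2.64 within the genotypes. JUND was higher by 1.71 ± 0.23 (SE; edgeR adjusted p = 0.0493), with 2.12 and 1.31. The shared adjusted p is the smallest this fit gave, and 741 genes had it. The call is a narrow one: edgeR's adjusted p for all 3 genes became 0.0521 when genes with low counts were kept, and 0.163 without overexpression library 1. The call of JUN was also lost without overexpression 2 (0.0663), wild type 1 (0.0585) or wild type 2 (0.0751). JUND lost it without overexpression 2 (0.0685) or wild type 1 (0.0585), and MAFF without wild type 1 (0.0601) or wild type 2 (0.0775), while the differences themselves stayed at 1.51 or more in all fits with a library left out.

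FOS had a log2 difference of 1.35 ± 0.50 (SE; edgeR adjusted p = 0.128) and ATF3 one of 0.92 ± 0.26 (SE; edgeR adjusted p = 0.0736). DESeq2 called both, with adjusted p-values of 0.0406 for FOS and 0.00973 for ATF3. It so called 5 of 10 members, all higher in number 1. Of the 28086 genes with a DESeq2 p-value it called 17% (8.21% higher and 8.79% lower). That base includes any gene DESeq2 left without an adjusted p, so the share among adjusted genes may be higher. JUNB had 0.78 ± 0.31 (SE; edgeR adjusted p = 0.147) and FOSB 0.70 ± 0.29 (SE; edgeR adjusted p = 0.159). JUNB thus did not pass, whereas JUN and JUND, from the same family, did. Whether JUNB differed less than JUN was not tested. FOSL2 had 0.31 ± 0.31, FOSL1 -0.08 ± 0.38 and BATF -0.04 ± 0.26 (SE; edgeR adjusted p = 0.536, 0.913 and 0.929).

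In FPKM, both libraries numbered 1 lay above both numbered 2 for 6 of 10 members (JUN, JUND, FOS, FOSB, ATF3 and MAFF), where 20.5% of all genes did. In log2 CPM this also held for JUNB and FOSL2, but the share of all genes was not computed on that scale. In FPKM, BATF was the only member with the reverse arrangement, which 44.4% of genes had. On the TMM scale of the fit, BATF was 0.15 higher in number 1 within overexpression and 0.27 lower within wild type. Within both genotypes 8 of 10 members were higher in number 1, as were 36.4% of genes. At least 2-fold higher within both were 4 members (JUN, JUND, FOS and MAFF) and 5.9% of genes. The median of the members was 0.85, and that of all genes was -0.03. Scaled as log2(FPKM + 1), the median was -0.20 over the 11229 genes averaging 1 FPKM or more. Of those genes limma called 781 higher and 2648 lower in number 1, where edgeR called 536 and 385 of 18873. JUN, JUND and MAFF were called under that scaling too.

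MAFF and FOSB each lie over a gene on the opposite strand, and whether counting used strand is not stated. PLA2G6, opposite MAFF, had 3.995 and 1.18 FPKM under overexpression, against 3.07 and 1.67 FPKM in the controls, high in number 1 like MAFF. ERCC1, opposite FOSB, had 11.1 to 16.5 FPKM. Neither pair shares exonic bases in GENCODE release 29. With the counts of MAFF and PLA2G6 summed, the log2 difference between numbers was 1.89 (edgeR adjusted p = 0.0493).

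The difference between numbers also followed base composition over expressed protein-coding genes. Tested protein-coding genes averaging 1 FPKM or more were split into 10 equal groups of 946 by the GC content of their longest transcript. FOS, FOSB and FOSL2 averaged less, so they are in no group and are set beside the group whose GC range fits theirs. The median log2 difference, number 1 minus number 2, ran from -0.77 in the group lowest in GC to 0.81 in the highest, while the genotype difference stayed between -0.06 and 0.10. Most AP-1 genes are rich in GC. JUND has 69.7% GC, JUNB 64.9%, MAFF 61.9%, BATF 60.2%, FOSL1 60.04%, FOSB 57.7% and JUN 56.7%, all within the GC ranges of the 3 highest groups.

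Set against genes of like GC, the members lay above, beside and below the medians of their groups. JUN, at 2.12, stood above its group's median of 0.49, and MAFF (2.20) and JUND (1.71) stood above theirs of 0.81. JUNB at 0.78 lay beside that same median of 0.81, and FOSL2 at 0.31 beside its median of 0.30. BATF and FOSL1, near 0, lay below their group's median of 0.67. ATF3, the member lowest in GC at 46.7%, had 0.92 where its group's median was -0.14.

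With the GC trend removed in each library, a step chosen after the data were seen, JUN had a log2 difference of 1.63, MAFF 1.48, ATF3 1.12, FOS 1.11 and JUND 0.74. JUNB came to -0.05, FOSL2 to 0.04 and FOSB to 0.18, and BATF and FOSL1 to -0.69 and -0.73. No member passed in that fit, with edgeR adjusted p = 0.138 for JUN and 0.175 for MAFF, and 0 of all genes did, though 3512 had an unadjusted p under 0.05. The 13 mitochondrially encoded protein genes, a rough sign of RNA quality, took 6.68% and 6.92% of counts in the libraries numbered 1 and 4.42% and 3.64% in those numbered 2. Their part in the AP-1 differences was not tested.

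**Figure D4:**
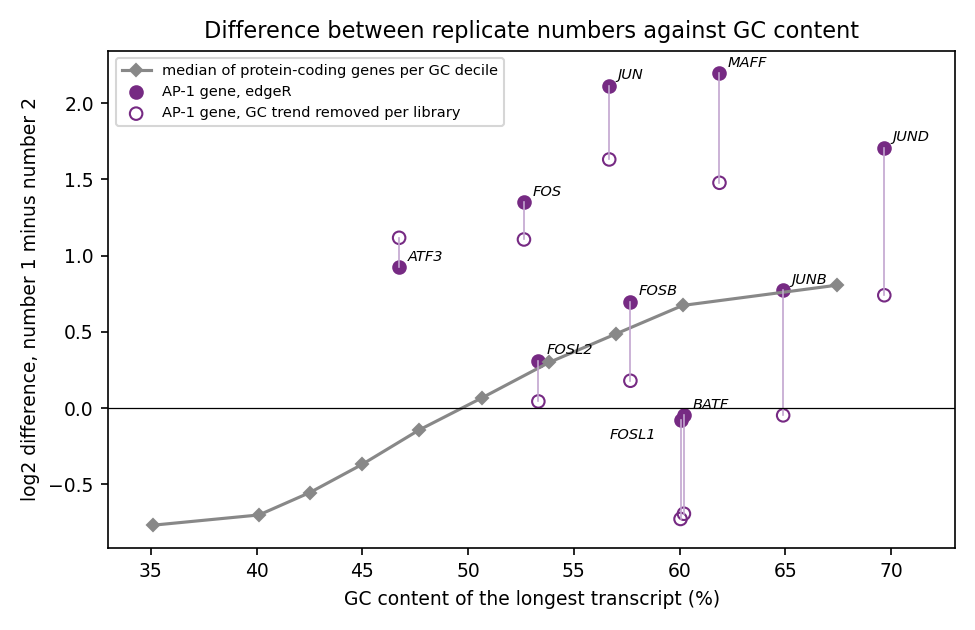
Each AP-1 gene's log2 difference between libraries numbered 1 and 2 is plotted against the GC percentage of its longest transcript, filled as fitted and open with the GC trend removed. The grey line, the median of protein-coding genes averaging 1 FPKM or more in 10 GC groups, climbs from -0.77 to 0.81. JUN, MAFF, FOS, ATF3 and JUND lie above it and BATF and FOSL1 below.

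Genes around AP-1 were read from lists written with earlier results of these data known, and edgeR called 0 members of each between the genotypes. Other immediate-early genes, 18 tested, came nearest to the AP-1 members in their genotype median. Their median log2 fold change with overexpression was 0.36, with 16 of 18 above 0, as were 9745 of all 18873 genes tested. Within both numbers 7 of the 18 were higher with overexpression, where 26.9% of all genes were, and 0 were lower, where 27.2% were. Among the immediate-early genes averaging 1 FPKM or more, IER3 had the widest difference at 0.96 ± 0.63 (SE), then IER5 at 0.62 ± 0.46 (SE). IER3, a stress-responsive gene, had 9.21 and 5.40 FPKM under overexpression, against 4.86 and 2.44 FPKM in the controls. Between numbers their median was 0.30, with 11 of 18 above 0, as were 9202 of all 18873 genes. edgeR called 3 of them higher and 0 lower. ZFP36, whose product degrades short-lived mRNAs, was higher in number 1 by 2.77 ± 0.26 (SE; edgeR adjusted p = 0.0493), more than any AP-1 member. NR4A1, an immediate-early nuclear receptor, was higher by 1.62 ± 0.21 (SE) and BTG2, an antiproliferative gene, by 1.10, at the same adjusted p. ZFP36 has 57.3% GC and NR4A1 59.8%, and the medians of their GC groups were 0.49 and 0.67. The early stress gene PPP1R15A missed the threshold at 1.69 ± 0.37 (SE; edgeR adjusted p = 0.0533). EGR1, averaging 0.98 FPKM, went the other way and was not called, at -0.87 ± 0.35 (SE; edgeR adjusted p = 0.151).

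Among 14 other bZIP partners the medians were -0.05 between genotypes and 0.19 between numbers. JDP2, a repressor that dimerizes with Jun, was higher in number 1 by 1.77 ± 0.23 (SE; edgeR adjusted p = 0.0493), and ATF2, the usual Jun partner at cAMP response elements, was lower by a log2 difference of -1.20 ± 0.21 (SE) at the same adjusted p. ATF2 is in the group poorest in GC, at 36.9%, and JDP2 has 51.5%. The stress factor DDIT3 had 1.504 ± 0.425 (SE; edgeR adjusted p = 0.0754). Of 14 tested genes of the JNK pathway, the scaffold gene MAPK8IP3 was called higher in number 1 (1.53 ± 0.20, SE) and ELK4, a ternary complex factor that acts on the FOS promoter, lower (-2.29 ± 0.29, SE), both at an edgeR adjusted p of 0.0493. MAPK8IP3 has 64.6% GC and ELK4 38.5%, and the medians of their GC groups were 0.81 and -0.77. Among genes of that list averaging 1 FPKM or more, GADD45A and GADD45B, which act on upstream kinases, had the widest genotype differences at 0.85 ± 0.52 and 0.67 ± 0.59 (SE).

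Genes described as AP-1 targets did not follow a common direction. Of the 19 genes with a row, 12 were tested and 6 were at 0 in every library, among them the matrix metalloproteinase genes MMP1, MMP3, MMP9 and MMP10 and the cytokine gene CXCL8. Between numbers, the urokinase receptor gene PLAUR was higher in number 1 by 1.31 ± 0.23 (SE) and the metalloproteinase inhibitor gene TIMP1 by 0.90 ± 0.16 (SE), while ANXA1, which encodes annexin A1, was lower by a log2 difference of -2.54 ± 0.33 (SE), each at an edgeR adjusted p of 0.0493. PLAUR has 55.7% GC and TIMP1 57.9%, in a GC group with a median of 0.49, and ANXA1 has 39.3%, in a group with a median of -0.70. The median of the 12 target genes was 0.06 between genotypes and 0.30 between numbers.

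The genes whose pattern over the 4 libraries lay nearest to that of JUN were SREBF1, SERPINH1, MHENCR, RRAS and CSRNP1, with clone-style and LINC names left out. Nearness was the Euclidean distance of centred log2(CPM + 1). Before names were left out, 5797 genes averaging 5 FPKM or more were compared. SREBF1, a lipid synthesis regulator, lay at 0.185 and had 30.2 and 8.66 FPKM under overexpression, against 19.0 and 5.93 FPKM in the controls. SERPINH1, a collagen chaperone gene, lay at 0.241, the long noncoding RNA gene MHENCR at 0.308, the Ras relative RRAS at 0.335 and CSRNP1, a nuclear protein gene, at 0.362. All 5 shared with JUN the high value in overexpression 1 and the low one in wild type 2. Among AP-1 members the nearest were MAFF at 0.634 and JUND at 0.648, with 0.461% and 0.503% of all tested genes closer, then FOS at 1.05, ATF3 at 1.19, JUNB at 1.29 and FOSB at 1.54. FOSL2, BATF and FOSL1 were farthest, at 1.92, 2.09 and 2.13. These distances rest on 4 libraries.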

How the data were processed

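Poly(A)-selected RNA of 4 ARP1 libraries was sequenced as paired ends, per the labels' protocols. The deposited table gives counts and FPKM per gene and library, per the file headers. Tools listed, without roles, in the submitters' processing notes are Bowtie 0.12.2, HISAT2 2.0 and StringTie 1.3.0, with mm8 as a build, though gene identifiers are human. The count columns the authors deposited were taken for estimated counts (expected counts) because 35.4% to 36.0% of counts between 1 and 19 were multiples of 4. The deposited FPKM placeholder of 0.0001 was set to 0. Which program counted, whether by strand and on which annotation, is not stated.

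Groups came from the genotype label and numbers from the titles. The test was edgeR 4.0.16 in R 4.3.3 (quasi-likelihood F test, TMM factors, filterByExpr, no block, Benjamini-Hochberg adjustment over 18873 genes, calls at 0.05, two-sided), with SE from the log2 fold change and F. With 2 libraries a group, the smallest two-sided p of an exact permutation test is 0.333, so none was used. Within-number and within-genotype differences use log2 CPM (prior count 2). DESeq2 1.42.0, limma 3.58.1 on log2(FPKM + 1) or log2(FPKM + 0.1), other size factors, no filter, a replicate block, counts divided by 4, a library left out, and, chosen after the data were seen, GC trend removal and summing with the opposite-strand gene were alternatives. Only genes averaging 1 FPKM or more entered limma. The fits were tested on simulated data. The members and lists were chosen with earlier results of these data known. Named are all 10 members, RFWD2 and DET1. The 5 genes nearest to JUN are named too, with clone-style and LINC names left out. So are up to 4 members of each other list with a mean of at least 1 FPKM and the widest difference. BTG2, called in edgeR, EGR1 and genes at 0 in every library were named after their values were seen. Of the AP-1 target list, 1 gene was not analysed here.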

Additional observations from a re-analysis of the deposited data

How the results depend on the processing

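No member was called between genotypes under any of the alternatives run. Genes called there numbered 0 under edgeR but 8 with no filter on low counts, 55 with DESeq2 and 73 to 183 with a library left out, and the members' median ran from -0.22 to 0.92 over those last fits. With the replicate block, edgeR called 0 genes and 0 members and the members' median was 0.29. In that fit 1201 genes, or 6.36%, and 3 members had an unadjusted p under 0.05, namely JUNB, MAFF and FOS. Their edgeR adjusted p-values were 0.697, 0.779 and 0.779. The numbers are not shown to mark a shared culture, though deviations of same-numbered libraries correlated at r = 0.587 over 11203 genes. JUND turned negative with the replicate block (-0.026), with the GC trend removed (-0.054) and with both (-0.13), and FOSL1 did with the GC trend removed (-0.029). With a library left out, genotype differences ran from -0.89 to 1.86 for JUN, 0.18 to 1.14 for JUNB, -1.23 to 0.98 for JUND, 0.06 to 1.62 for FOS, -0.25 to 0.54 for FOSB, -0.17 to 0.52 for FOSL1, -0.20 to 0.86 for ATF3 and -0.75 to 2.37 for MAFF. A lone library was then assumed to vary like the other group.

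Between numbers, genes called came to 0 with no filter, 4774 with DESeq2, 3429 and 3293 with limma at pseudocounts of 1 and 0.1, 2724 with counts divided by 4, 0 with the GC trend removed, with or without the replicate block, and 0 to 128 with a library left out. Members called came to 0 with no filter, 5 with DESeq2, 0 with the GC trend removed, also with the replicate block, and 0 to 1 with a library left out. The other settings called 3, in limma 3 of the 7 members it tested. The members' median was 0.46 and 0.47 with the GC trend removed without and with the block, and 0.67 to 1.15 with a library left out. With limma it was 0.50 and 0.61, but over 7 members, since FOS, FOSB and FOSL2 averaged below 1 FPKM and were not tested there. JUNB turned to -0.048 with the GC trend removed. With a library left out, FOSL1 ran from -0.49 to 0.24 and BATF from -0.29 to 0.16. The cause of these shifts was not tested. With 2 libraries a group the precision is limited, and the part of depth in it was not tested.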
